A study of Mus musculus with 82 samples.

Results

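The comparison described here is that of mouse aortic smooth muscle cells incubated for 24 h with EGF, AngII and U46619 together against the untreated cultures of the same mice. Its members are defined by treatment and time, and are the 6 libraries with all 3 substances and the 6 control libraries of the 24 h incubation, 12 of 82 libraries in the series and 12 of the 42 after 24 h. RNA enriched for poly(A) was sequenced from primary aortic vascular smooth muscle cells (aVSMC) of C57BL/6 mice. The 24 h incubation held 7 groups with 1 culture from each of 6 mice, so that every treated culture has a control from its own mouse.

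Cells of both groups had been grown in medium with serum and 10 µg/L EGF, and were then kept for 24 h in medium with no supplement before the substances were added. The control group, mice 1 to 6, received that medium alone. The EGF+AngII+U46619 group, also mice 1 to 6, received EGF at 10 µg/L, AngII (angiotensin II) at 10 nM and U46619, a stable thromboxane A2 analog, at 1 µM. The labels give no age or sex of the mice, the purity of such cultures is stated only as tested earlier, and cultured cells of this kind are a model of the dividing rather than the resting artery wall.

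The 3 substances bind different receptors on smooth muscle cells. EGF acts on the receptor tyrosine kinase EGFR, while angiotensin II and thromboxane A2 act on the G protein-coupled receptors AT1 and TP, which raise calcium and activate RhoA, and which can also activate EGFR in a cell. In the artery wall such signals are known for contraction, for growth of smooth muscle cells and for the change from a contractile state to a dividing, matrix-remodelling state.

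Levels are given as FPM, counts relative to the library size after scaling by TMM (the cpm of edgeR), and the level of a gene in a group as its median with the lowest and highest culture in parentheses. A gene is called changed, or a DEG, when its FDR (the adjusted p) is under 0.05 in both edgeR and DESeq2 and either group's mean reaches 5 FPM. Fold changes are log2 values fitted with the mouse as a term. Of 14528 genes tested, 4849 were called (33.4%), 2568 of them higher with the 3 substances (17.7%) and 2281 lower (15.7%). Any list of genes below is to be read against these shares and against the median log2-fold change over all genes tested, −0.04.

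Sequencing depth was alike in the groups, with total counts of 19170622, 19733455 and 20105888 (lowest, median and highest) in the controls and 19041453, 19790327 and 20551231 with the 3 substances. The treated library of replicate 3 stood apart, and it did not do so by depth. Its TMM factor was 0.646, where the 5 other treated libraries had 0.906 to 1.01. It had counts for 15716 genes, against 16910 to 18622 in the other treated libraries, and 10.7% of its counts fell on processed pseudogenes, against 5.30% to 7.38%. Correlations of log2 levels with the other libraries of mouse 3 were 0.909 to 0.949, against 0.952 to 0.991 among those others and 0.898 to 0.995 between libraries of the same mouse in the 5 other mice. Single values this low thus occur in other mice too. The highest value of this library, 0.949, was nonetheless under the highest of each other treated library (0.990 to 0.995). These are correlations over genes and not over independent replicates. Against the EGF+U46619 library of the same mouse, the median difference was 0.68 (log2) over 3662 genes with up to 2166 exon bases and −0.85 over 3657 genes with 6259 or more. In the other mice these medians stayed between −0.11 and 0.12. What set this library apart was not tested, and values are given with and without it where it weighs most. Below, "treated library n" is the EGF+AngII+U46619 library of replicate n, and "without mouse n" leaves out all libraries of that mouse.

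**Figure D1:**
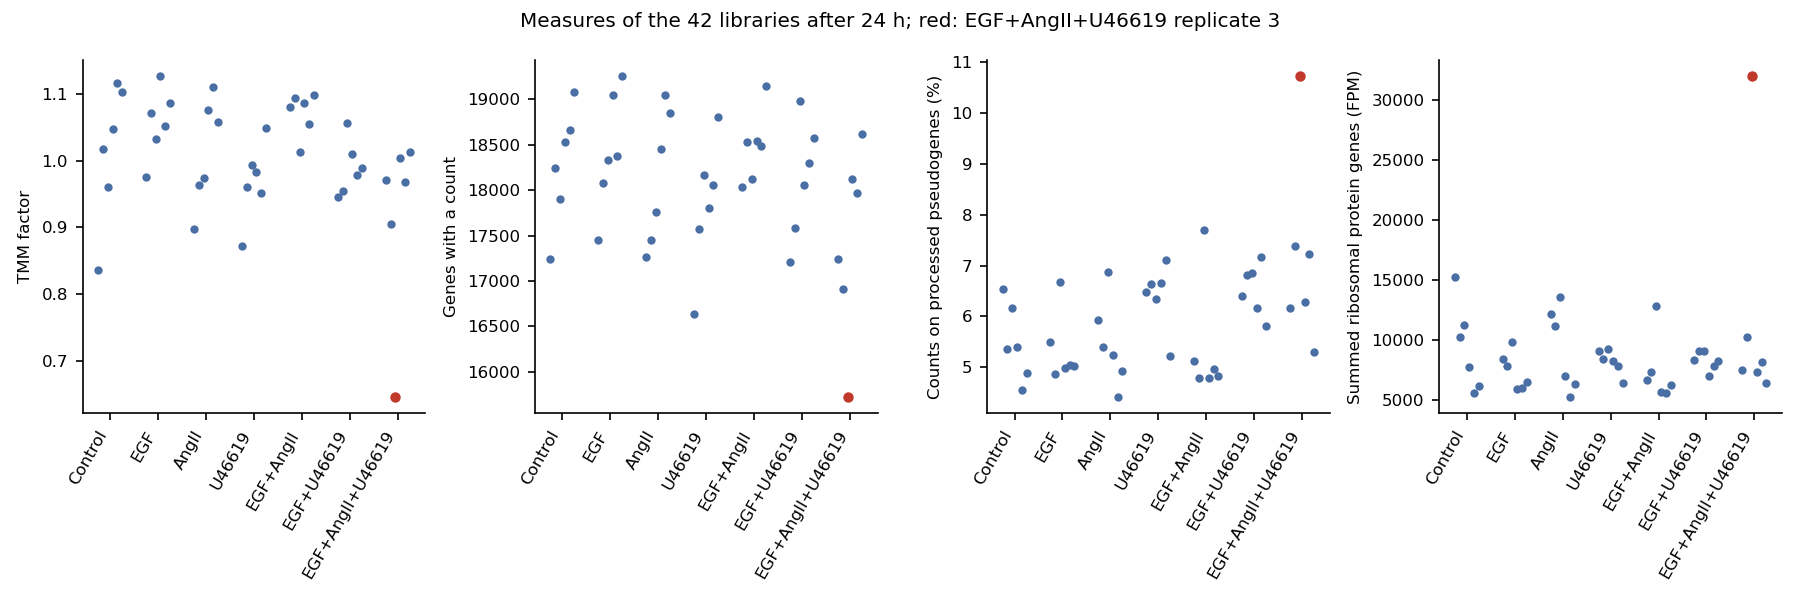
TMM factor, number of genes with a count, percent of counts on processed pseudogenes and summed FPM of the ribosomal protein genes in each of the 42 libraries after 24 h, by treatment group, with 1 point per culture. The red point, the EGF+AngII+U46619 library of replicate 3, lies apart in each panel, at 0.646, 15716, 10.7% and 31984.

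Leaving that library out raised the number of calls. Without it 5332 genes were called, 2730 higher (18.8%) and 2602 lower (17.9%). Of the 4849 genes called with it, 4208 were also called without it and 641 were not, 1124 were called only without it, and 0 of the shared genes had the opposite sign. These fits share all controls and the 5 other treated libraries, so shared signs are no separate test. Genes annotated as processed pseudogenes, which can share reads with their parent genes because the authors counted reads that align to several places, were called higher in 17.7% of 1023 tested and lower in 1.96%. Without the library these shares were 16.5% and 3.32%. The part of shared reads in these calls was not tested.

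The marker genes fixed for the cell types of the aorta show smooth muscle genes at high level, and genes of other cells at levels that differ from mouse to mouse. Of 12 smooth muscle markers 10 had counts, and the other 2, Tagln and Cnn1, lie on chromosome 9, for which the deposited table lists 0 throughout. Their summed level was 1661, 3135 and 7236 FPM in the controls and 4091, 10355 and 20936 FPM with the 3 substances, and Acta2, smooth muscle actin, was the most abundant. Of the 10 tested 3 were called higher and 2 lower, with a median log2-fold change of 0.50, and 2 and 3 without the treated library of replicate 3. The median was 0.24 without mouse 1 and 0.30 without treated library 2, and 1 was lower without mouse 2. Levels within the list differed widely. Smtn had medians of 108 and 153.1 FPM in the controls and with the substances, and Lmod1 of 101.2 and 134 FPM. Myh11, the smooth muscle myosin heavy chain, was at 2.68, 43.6 and 90.9 FPM in the controls and 0.754, 34.9 and 198 FPM with the substances. Myocd, a coactivator that marks the contractile state, stayed at or under 3.01 FPM in every culture of both groups.

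Fibroblast markers, which adventitial cells and dividing smooth muscle cells can share, summed to 741, 997 and 3653 FPM in the controls and 221, 460 and 1186 FPM with the 3 substances, with Pdgfra (265 and 136 FPM) and Dcn (259 and 118 FPM, up to 2669 in 1 control) highest by median and Clec3b (chromosome 9) at 0. Both Lum (−2.89, FDR 0.00076, lower in 5 of 6) and Pdgfra (−1.04, FDR 0.000186, lower in 6 of 6) fell, and all 9 tested of 10 were called lower, with a median log2-fold change of −1.45, and of −1.84 without the treated library of replicate 3. Without mouse 1 the count was 6, and without the mouse term in the fit it was 2. In bulk samples, fewer cells of a type and less RNA per cell cannot be told apart.

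Endothelial markers varied with the mouse far more than with the treatment. Their sum was 9.85, 293 and 2525 FPM in the controls and 4.92, 251 and 2460 FPM with the substances, highest in mouse 6 in both groups, with Pecam1 the most abundant and 0 of 8 tested called by edgeR and DESeq2 in either direction. Their median was −0.34 (−0.53 without mouse 5, −0.16 without mouse 2), and 1 was called lower without mouse 1, 3 or 5 or without treated library 3 or 6. Pecam1 (log2-fold change −0.60, FDR 0.0651, lower in 6 of 6) was called without mouse 1 (−0.55) or the treated library of replicate 6 (−0.75), and Emcn was not (0.11, FDR 0.789, higher in 3 of 6). Cdh5 is at 0, but it lies in a stretch at the end of chromosome 8 that the table lists at 0 throughout, and Esam lies on chromosome 9, so these zeros carry no information. Leukocyte markers summed to 22.2, 93.0 and 117 FPM in the controls and 21.6, 41.0 and 85.1 FPM with the substances. Lyz2 (−1.53, FDR 6.41e-06, lower in 6 of 6) had the highest median in both groups (60.8 and 18.6 FPM), followed by Csf1r (7.30 and 15.7 FPM), while Ptprc, Adgre1, C1qa and Tyrobp, which define leukocytes and macrophages, were at or near 0 in all 12 cultures. Of 4 tested 1 was called higher and 1 lower, with a median of 0.29 (0.18 without treated library 3, 0.0950 without mouse 3, 0.44 without mouse 1).

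Schwann cell markers went from 5.86, 27.1 and 67.7 FPM to 2.25, 5.23 and 36.8 FPM, with Mbp (−0.00340, FDR 0.995, lower in 3 of 6) the highest in a single culture (61.1 FPM) but under S100b in the control median (3.38 against 5.01 FPM), and of 3 tested only S100b was called (−2.06, FDR 0.00144, lower in 5 of 6, list median −2.06). Mesothelial and epithelial markers were at 0.838, 42.2 and 891 FPM and 2.22, 38.8 and 1248 FPM, with Msln (0.55, FDR 0.214, higher in 6 of 6) reaching 712 FPM in 1 culture at medians of 0.285 and 0.545 FPM, under those of Krt18 and Krt19, and with Cdh1, also in the stretch of chromosome 8, at 0. Of 6 tested, Krt19 was called higher (2.87, FDR 0.000131, higher in 6 of 6), with a list median of 0.68 (0.30 without treated library 3), and 1 was called lower without mouse 4 or treated library 4. Adipocyte markers were at 9.50, 33.9 and 2354 FPM and 5.79, 25.4 and 346 FPM, with Fabp4 the most abundant and the highest values in mouse 6. Of 5 tested, 2 were called lower (0 without mouse 6 and 4 without mouse 3), with a median of −1.99 (−3.09 without mouse 5). Plin1 (−2.24, FDR 0.00189, lower in 5 of 6) lost its call without mouse 1 (−2.04), mouse 6 (−1.90) or the treated library of replicate 6 (−1.51), and was at −3.49 without mouse 5. Adipoq (−1.99, FDR 0.00109, lower in 5 of 6) lost it without mouse 4 (−1.88), mouse 6 (−1.48) or the treated libraries of replicates 4 (−1.92) and 6 (−1.35), and was at −3.09 without mouse 5. Ribosomal protein genes, followed as a sign of RNA quality, summed to 5602, 8963 and 15255 FPM and 6403, 7823 and 31984 FPM, the last value being the treated library of replicate 3, with 0 of 7 called by edgeR and DESeq2 and a median of 0.26 (−0.05 without that library). Without mouse 1 the median was 0.53 and 2 were called higher. Neither Rpl3 (0.02, FDR 0.942, higher in 3 of 6) nor Rps18 (0.29, FDR 0.317, higher in 3 of 6) was called. The part of these cells and of this library in the results below was not tested.

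The size of the response differed between mice. Over the 4849 called genes the median absolute difference between a treated culture and its control was 1.11, 0.98, 0.91, 0.45, 0.64 and 0.35 (log2) in mice 1 to 6, and 92.6%, 98.7%, 84.0%, 89.2%, 96.6% and 88.2% of the genes moved in the fitted direction. Those shares are high by construction, as the genes were called from these mice. Mice 4 and 6 moved less than mice 1 to 3. In 2716 called genes (56%) the difference had the fitted sign in all 6 mice, and without the treated library of replicate 3 this held for 4035 of 5332 (75.7%) in 5 of 5. Among 3434 called genes that moved in the fitted direction in the 5 other mice, 718 moved the opposite way in mouse 3. Across genes, the differences of mouse 3 correlated with those of the other mice at 0.08 to 0.47, and those of the other mice among themselves at 0.40 to 0.69. The levels of the groups overlapped for most genes. For 624 of 14528 genes (4.30%) every treated culture lay on the same side of every control, and among called genes this held for 337 of those higher (13.1%) and 203 of those lower (8.90%).

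Most changes were of moderate size. The median absolute log2-fold change of the called genes was 0.74, with 1536 called genes changed more than 2-fold, 282 more than 4-fold and 60 more than 8-fold. The tests rest on a spread estimated from all 42 libraries. With only the 12 libraries compared in the fit the number of calls was 1389, and 1917 without the treated library of replicate 3, limma on the 6 differences within mice called 1316, and a fit with no mouse term called 2143. The genes described below are those of a rule stated with the processing. Of the 77 called higher and 81 called lower among them, 129 moved the same way in all 6 mice. Over all called genes this held for 56%. The rule asks for the same sign in 6 mice or for a low p in most of its parts, so agreement between mice among named genes is high by construction.

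Among the receptors of the 3 substances only the thromboxane receptor gene was called. Tbxa2r, which encodes TP, had 58.0 FPM (49.5 to 187.6) in the controls and 24.9 FPM (9.46 to 38.9) with the substances. The groups did not overlap, and the mRNA of the receptor fell (log2-fold change −1.66, SE 0.33, FDR 0.000141, lower in 6 of 6 mice). Egfr was at 145 FPM (20.2 to 227) and 71.1 FPM (30.5 to 158.5), overlapping (log2-fold change −0.33, FDR 0.252, lower in 3 of 6). Agtr1a, the main AT1 gene of rodents, was low, at 2.42 FPM (0 to 19.7) and 0.154 FPM (0 to 2.97). Its fitted change was −2.86 (FDR 0.000213), but its means lay under 5 FPM, so it was not called, and it was called when all libraries of replicate 2, 3, 4, 5 or 6 were left out (−2.45 to −3.53). Agtr1b, the other rodent AT1 gene, reached at most 0.238 FPM in a control and was not tested. Of 5 receptor genes tested, 0 were called higher and 1 lower, with a median of −0.33, with 3 lower without mouse 3 and 2 without treated library 3.

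Most of the largest increases belonged to genes nearly silent in the control cultures. Serpinb2 (chr1:107511423-107535478, GRCm38), the plasminogen activator inhibitor PAI-2, was at 0.0257 FPM (0 to 0.228) in the controls and at 4.87 FPM (0.603 to 33.9) with the 3 substances. The groups did not overlap, and the control level of near 0 makes the fitted fold large and uncertain (log2-fold change 6.94, SE 0.96, FDR 1.65e-06, higher in 6 of 6 mice). Vgf (chr5:137026392-137033351), a secreted neuropeptide precursor, went from 1.21 FPM (0.0599 to 1.83) to 19.5 FPM (4.65 to 33.2) without overlap. It had the smallest edgeR FDR of the comparison (log2-fold change 4.29, SE 0.36, FDR 1.28e-09, higher in 6 of 6 mice). Ankrd1, a mechanical stress-responsive cofactor, was at 6.57 FPM (0.475 to 65.4) and 268 FPM (3.82 to 1027). Its groups overlapped, yet each treated culture exceeded its own control (log2-fold change 4.55, SE 0.74, FDR 1.32e-05, higher in 6 of 6 mice). Nppb, brain natriuretic peptide, was at 0.0925 FPM (0 to 0.683) and 3.33 FPM (0.0541 to 33.4), a low level in both groups (log2-fold change 4.29, SE 0.88, FDR 0.000223, higher in 6 of 6 mice). Leaving out mouse 2 or its treated library ended the call of Nppb (3.25 and 3.84). Il1rl1, the interleukin-33 receptor ST2, rose from 0.554 FPM (0.238 to 2.16) to 17.1 FPM (0.900 to 47.7) (log2-fold change 4.18, SE 0.54, FDR 8.08e-07, higher in 6 of 6 mice), and Crct1 from 0.966 FPM (0 to 21.5) to 46.7 FPM (1.46 to 227) (log2-fold change 4.55, SE 0.53, FDR 2.34e-07, higher in 6 of 6 mice). The non-classical MHC genes H2-M1 (4.36, FDR 1.87e-06, higher in 6 of 6) and H2-M9 (3.86, FDR 2.05e-05, higher in 6 of 6) also rose, but reads that align to both can count for both, and their number was not measured. With limma on the 6 differences within mice, every gene named in this paragraph kept its direction but lost the call.

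**Figure D2:**
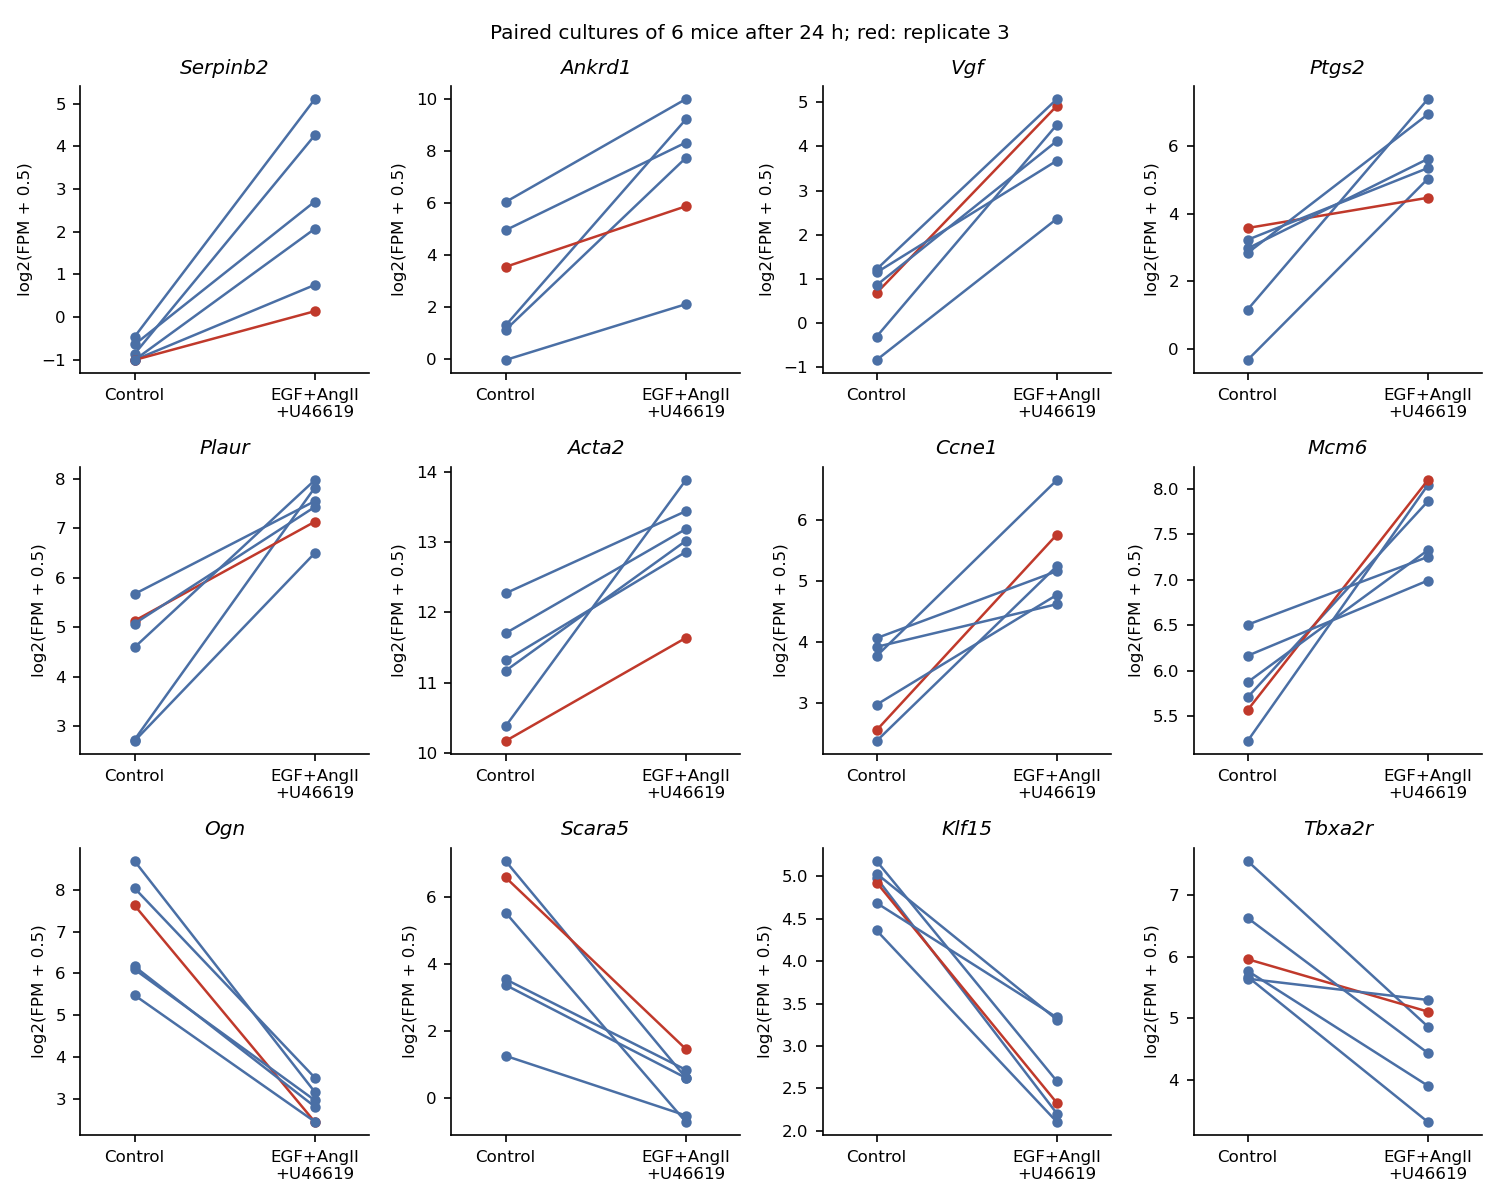
log2(FPM + 0.5) of 12 genes in the control and EGF+AngII+U46619 cultures after 24 h, with a line joining the cultures of each of 6 mice and replicate 3 in red. Each of the 6 mice moves the same way for all 12 genes, while the groups overlap for Ankrd1, Acta2 and Scara5.

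Fibrinolysis and matrix proteolysis genes moved in both directions. Plaur, the urokinase receptor, went from 28.3 FPM (5.99 to 50.4) to 179.1 FPM (89.8 to 250.4) without overlap (log2-fold change 3.09, SE 0.41, FDR 1.2e-06, higher in 6 of 6 mice). Mmp11, the matrix metalloproteinase stromelysin 3, fell from 429 FPM (172.9 to 741) to 99.8 FPM (67.5 to 142), also without overlap (log2-fold change −2.05, SE 0.32, FDR 7.25e-06, lower in 6 of 6 mice). Of 27 tested members of this list, 3 were called higher and 11 lower, with a median of −0.78.

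Genes that report ERK signalling, and its feedback, were called higher more often than lower. In this list of 33 genes 17 were called higher and 1 lower (2 without mouse 3), with a median of 0.79. The number higher was 13 without mouse 2 and 10 without the mouse term in the fit. Dusp5, a nuclear ERK phosphatase, was at 8.41 FPM (5.72 to 21.0) and 43.9 FPM (25.8 to 56.4), without overlap (log2-fold change 2.13, SE 0.28, FDR 1.2e-06, higher in 6 of 6 mice). Phlda1, an early target of growth factors, rose with overlap, from 13.0 FPM (5.33 to 21.5) to 62.4 FPM (18.2 to 213) (log2-fold change 2.24, SE 0.34, FDR 6.04e-06, higher in 6 of 6 mice), and Myc, the growth-promoting transcription factor, from 27.4 FPM (21.8 to 61.4) to 109 FPM (56.4 to 114) (log2-fold change 1.62, SE 0.24, FDR 4.9e-06, higher in 6 of 6 mice). Spry1, a feedback inhibitor of receptor tyrosine kinases, was the gene that fell, from 72.8 FPM (55.3 to 119) to 25.3 FPM (19.6 to 65.4) (log2-fold change −1.47, SE 0.23, FDR 1.04e-05, lower in 6 of 6 mice). The feedback genes thus did not share 1 direction.

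Ligands of EGFR made by the cells themselves split as well, 2 of 8 called higher and 1 lower with a median of −0.43 (−0.26 without treated library 3, −0.27 without mouse 6). Hbegf, heparin-binding EGF, was at 25.5 FPM (5.09 to 77.4) and 87.8 FPM (27.9 to 151.3) (log2-fold change 1.96, SE 0.35, FDR 3.87e-05, higher in 6 of 6 mice). Ereg, epiregulin, was at 9.93 FPM (2.52 to 25.9) and 47.4 FPM (6.79 to 68.3) (log2-fold change 1.99, SE 0.30, FDR 4.37e-06, higher in 6 of 6 mice). Tgfa, transforming growth factor alpha, was called lower (log2-fold change −0.86, FDR 0.0146, lower in 6 of 6), but not without mouse 1 (−0.53) or its treated library (−0.72). For both ligands that rose, every treated culture exceeded its control although the groups overlapped.

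Genes of DNA replication and S phase were called in the same direction almost throughout. Of 46 tested, 44 were called higher and 0 lower by both tools, with a median of 1.60, and without the treated library of replicate 3 the counts were 45 and 0 with a median of 1.56. Mcm6, a subunit of the replicative helicase, was at 54.9 FPM (37.0 to 90.3) and 196 FPM (127 to 273), without overlap (log2-fold change 1.67, SE 0.24, FDR 2.39e-06, higher in 6 of 6 mice). Ccne1, cyclin E1, which drives entry into S phase, was at 10.3 FPM (4.73 to 16.3) and 36.4 FPM (24.1 to 100), also without overlap (log2-fold change 2.02, SE 0.32, FDR 1.09e-05, higher in 6 of 6 mice). Ung, the uracil DNA glycosylase, went from 3.32 FPM (2.15 to 4.47) to 16.2 FPM (11.5 to 19.7) (log2-fold change 2.20, SE 0.30, FDR 1.21e-06, higher in 6 of 6 mice), and Cdca7, a target of E2F and Myc, from 7.26 FPM (4.25 to 11.8) to 27.3 FPM (10.7 to 48.0) (log2-fold change 1.71, SE 0.24, FDR 1.7e-06, higher in 6 of 6 mice). Every mouse raised these 4 genes, but by mouse the median of the list was 2.80, 2.61, 2.17, 0.41, 1.01 and 0.66 in mice 1 to 6.

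Mitosis genes rested on fewer mice. Of 35 tested, 30 were called higher and 0 lower (26 and 1 without the treated library of replicate 3), with a median of 1.74. Their medians by mouse were 5.18, 3.74, 2.84, −0.23, 0.56 and 0.47. The list medians were thus highest in mice 1 to 3, and the number called higher was 8 without mouse 2 and 17 without the treated library of replicate 1. Cdk1, the kinase that starts mitosis, was at 37.9 FPM (25.5 to 68.7) and 202 FPM (58.3 to 466) with overlap (log2-fold change 1.78, SE 0.44, FDR 0.00142, higher in 5 of 6 mice). Foxm1, a transcription factor of G2 and mitosis genes, rose (1.78, FDR 0.00198, higher in 6 of 6), as did the spindle checkpoint gene Mad2l1 (1.55, FDR 0.00292, higher in 6 of 6). Cdc25c, the phosphatase that activates Cdk1, was called higher (2.28, FDR 0.00378, higher in 5 of 6) but not when mouse 3 was left out (1.72).

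Regulators of G1 moved in both directions, 4 of 18 called higher and 6 lower with a median of −0.10 (−0.20 without mouse 1, 0.02 without mouse 6, −0.05 without treated library 6). Without mouse 2, or its treated library, 3 were called lower. Cdk2, the partner of cyclin E, was at 31.6 FPM (25.1 to 35.6) and 52.5 FPM (36.4 to 92.4), without overlap (log2-fold change 0.80, SE 0.15, FDR 6.96e-05, higher in 6 of 6 mice), and E2f3, an activating E2F, rose (log2-fold change 0.63, FDR 0.00131, higher in 6 of 6). Cdkn1b, the CDK inhibitor p27, fell from 125 FPM (70.9 to 233) to 61.7 FPM (53 to 98.8) (log2-fold change −1.04, SE 0.13, FDR 8.05e-07, lower in 6 of 6 mice), and so did Rbl2, the pocket protein p130 of resting cells (log2-fold change −1.04, FDR 0.000262, lower in 6 of 6). The activators and inhibitors named here moved in opposite directions.

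**Figure D3:**
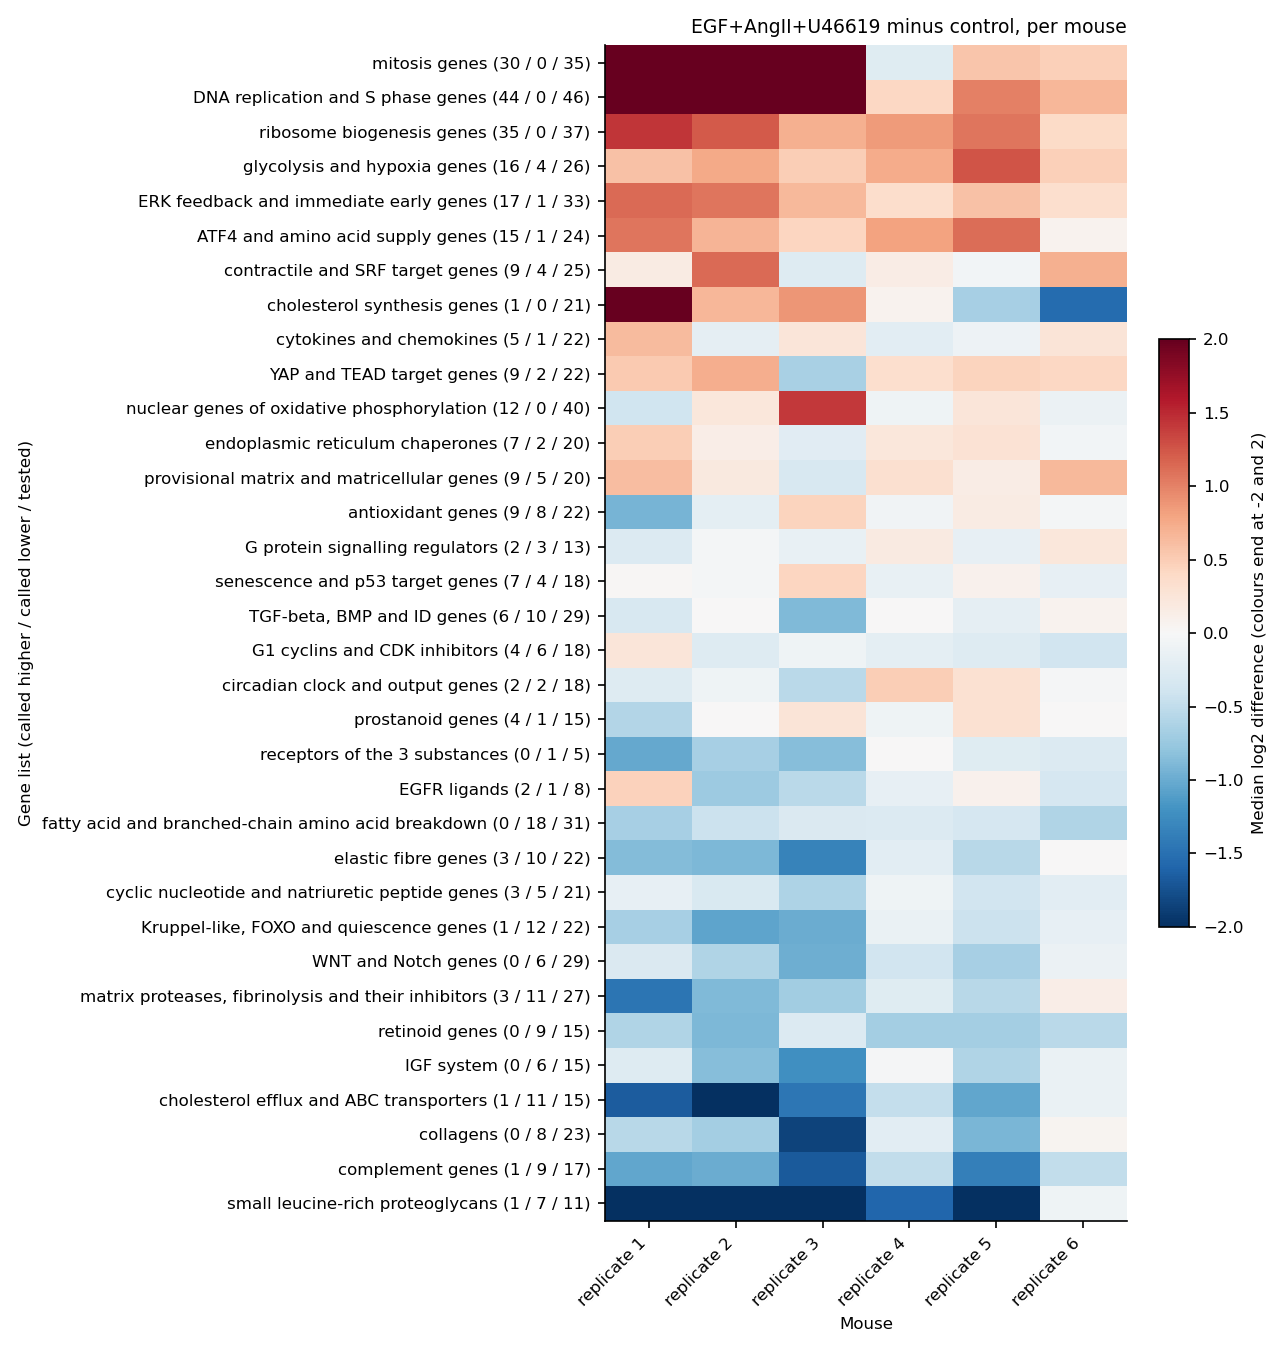
Median difference of log2(FPM + 0.5) between the EGF+AngII+U46619 culture and the control culture of each of 6 mice, for the tested genes of 34 pathway lists, with colours from −2 (blue) to 2 (red). DNA replication and ribosome biogenesis are above 0 in every mouse, while mitosis runs from 5.18 in mouse 1 to −0.23 in mouse 4 and oxidative phosphorylation is highest in mouse 3 (1.41).

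Ribosome biogenesis genes rose almost as a block. Of 37 tested, 35 were called higher and 0 lower by both tools, with a median of 0.97, and 35 and 1 without the treated library of replicate 3. Nop56, a core protein of box C/D snoRNPs, was at 84.5 FPM (62.3 to 90.0) and 203 FPM (103 to 386), without overlap (log2-fold change 1.34, SE 0.17, FDR 6.2e-07, higher in 6 of 6 mice). Gar1, of the box H/ACA snoRNPs, was at 16.9 FPM (15.0 to 22.0) and 40.7 FPM (27.3 to 67.1) (log2-fold change 1.29, SE 0.16, FDR 6.16e-07, higher in 6 of 6 mice). Nolc1 (log2-fold change 1.18, FDR 7.3e-07, higher in 6 of 6), a nucleolar chaperone of snoRNPs, and Rrp12 (1.32, FDR 9.56e-07, higher in 6 of 6), needed for export of ribosomal subunits, had groups that did not overlap either. Unlike mitosis, the medians of this list were positive in each mouse, from 0.38 to 1.44.

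Genes of amino acid supply, many of them known targets of the stress-responsive factor ATF4, were higher in 15 of 24 and lower in 1 (0 without mouse or treated library 1, 2, 5 or 6), with a median of 0.63. Mthfd2, an enzyme of mitochondrial one-carbon metabolism, was at 57.8 FPM (35.9 to 77.4) and 151.2 FPM (78.7 to 275), without overlap (log2-fold change 1.35, SE 0.15, FDR 1.8e-07, higher in 6 of 6 mice). Mthfd1l, the next enzyme of that pathway, was at 20.6 FPM (13.5 to 27.8) and 87.9 FPM (52.1 to 148.7), again without overlap (log2-fold change 2.12, SE 0.27, FDR 6.79e-07, higher in 6 of 6 mice). Shmt2, the mitochondrial serine hydroxymethyltransferase, rose (log2-fold change 1.25, FDR 4.64e-06, higher in 6 of 6), and so did Asns, asparagine synthetase (1.05, FDR 7.25e-06, higher in 6 of 6). The mitochondrial one-carbon enzymes named here moved upwards in all 6 mice.

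Glycolysis and hypoxia genes were called higher in 16 of 26 and lower in 4, with a median of 0.79. Slc2a1, the glucose transporter GLUT1, was at 47.1 FPM (21.1 to 71.5) and 156.1 FPM (88.6 to 428), without overlap (log2-fold change 1.93, SE 0.28, FDR 2.67e-06, higher in 6 of 6 mice). Ldha, lactate dehydrogenase A, was at 544 FPM (409.7 to 1049.6) and 1813 FPM (1309 to 2470) (log2-fold change 1.68, SE 0.21, FDR 7.05e-07, higher in 6 of 6 mice). Pgam1, phosphoglycerate mutase, was at 344 FPM (224 to 398) and 812 FPM (763 to 1105) (log2-fold change 1.40, SE 0.18, FDR 7.05e-07, higher in 6 of 6 mice). All 3 separated the groups, from uptake of glucose to lactate, and Egln3, an oxygen-sensing hydroxylase, rose with overlap (log2-fold change 1.36, FDR 5.34e-07, higher in 6 of 6).

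Breakdown of fatty acids and branched-chain amino acids went the other way, 0 of 31 called higher by both tools (1 without mouse 6) and 18 lower, with a median of −0.43. The number lower was 23 without the treated library of replicate 3, 11 without mouse 1 and 6 without the mouse term in the fit. Bckdha, a subunit of the branched-chain ketoacid dehydrogenase, was at 25.8 FPM (11.8 to 27.3) and 8.67 FPM (3.57 to 13.8) (log2-fold change −1.45, SE 0.24, FDR 1.57e-05, lower in 6 of 6 mice). Acadm, medium-chain acyl-CoA dehydrogenase, was at 68.1 FPM (34.5 to 78.4) and 35.8 FPM (22.2 to 44.8) (log2-fold change −0.90, SE 0.16, FDR 3.06e-05, lower in 6 of 6 mice), and Hadh, an enzyme of mitochondrial beta-oxidation, fell too (log2-fold change −0.94, FDR 2.28e-05, lower in 6 of 6). Each of these 3 was lower in all 6 mice although the groups overlapped.

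Nuclear genes of oxidative phosphorylation show the weight of the atypical library. With it 12 of 40 were called higher and 0 lower, with a median of 0.25. Without it 6 were called higher and 4 lower, with a median of 0.06, and without mouse 3 the numbers were 5 and 6 with a median of 0.04. Without mouse 1 the median was 0.42. The median by mouse was 1.41 in mouse 3 and between −0.40 and 0.25 in the others. Cycs, cytochrome c, separated the groups with and without that library, at 94.3 FPM (47.4 to 117) and 213 FPM (132 to 251) (log2-fold change 1.26, SE 0.18, FDR 3.54e-06, higher in 6 of 6 mice). Atp5g1, a subunit of the ATP synthase, had a log2-fold change of 1.01 with the library and 0.57 without it (0.55 without mouse 3). Atp5b (0.57, FDR 0.000917, higher in 5 of 6) and Uqcrb (0.37, FDR 0.00552, higher in 6 of 6) were also called higher, the latter not without mouse 1 (0.29).

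Cholesterol synthesis genes differed in sign between mice, with medians of 3.45, 0.66, 0.88, 0.08, −0.66 and −1.54 in mice 1 to 6. Of 21 tested, 1 was called higher and 0 lower by both tools, with a list median of 0.48. Without mouse 6 the number higher was 8 and the median 0.96, and without mouse 1 the median was −0.13. Without treated library 6 they were 4 and 0.76, without treated library 1 the median was 0.12, and without mouse or treated library 3, 1 gene was lower. Tmem97, a sterol-regulated membrane protein, was the gene called (log2-fold change 1.19, FDR 0.000453, higher in 5 of 6). Cyp51, lanosterol demethylase, was at 51.6 FPM (20.1 to 75.8) and 48.5 FPM (14.1 to 835) and was not called (log2-fold change 0.62, FDR 0.331, higher in 4 of 6), except without mouse 6 (1.23). Srebf2, the regulator of this pathway, was not called either (0.04, FDR 0.915, higher in 2 of 6). The list thus had no common direction over the 6 mice.

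Contractile genes moved in both directions. Of 25 tested, 9 were called higher and 4 lower, with a median of 0.52 (0.28 without mouse 2, 0.31 without treated library 2). Acta2 (chr19:34241090-34255590) was at 2424 FPM (1149 to 4949) and 8829 FPM (3185 to 15164), overlapping but higher than its own control in every mouse (log2-fold change 1.88, SE 0.39, FDR 0.000273, higher in 6 of 6 mice). Actg2, the enteric smooth muscle actin, was at 63.4 FPM (2.38 to 322) and 189.5 FPM (19.5 to 3111) (log2-fold change 2.46, SE 0.41, FDR 1.91e-05, higher in 6 of 6 mice). Tpm2, beta-tropomyosin, was at 374 FPM (151.4 to 627) and 1019 FPM (285 to 2374) (log2-fold change 1.58, SE 0.28, FDR 3.48e-05, higher in 6 of 6 mice), and Actn1, alpha-actinin, rose (log2-fold change 1.12, FDR 9.5e-05, higher in 5 of 6). The genes that fell included Aoc3, a vascular amine oxidase of mature smooth muscle (log2-fold change −2.29, FDR 5.15e-06, lower in 6 of 6), and Synpo2, an actin-bundling protein (−1.09, FDR 0.009, lower in 4 of 6), the latter not called without mouse 2 (−0.99). Smtn, smoothelin, was called higher (0.48, FDR 0.00636, higher in 5 of 6) but not without mouse 2 (0.40), mouse 3 (0.36) or the treated library of replicate 3 (0.34). Leaving out mouse 2 also brought the number lower to 2.

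Targets of YAP, a cofactor that responds to the cytoskeleton, and of TEAD moved in both directions. Of 22 tested, 9 were called higher and 2 lower, with a median of 0.29 (0.19 without treated library 6). Ccn2, connective tissue growth factor, was at 993 FPM (104 to 2395) and 5555 FPM (891 to 6918) (log2-fold change 2.49, SE 0.49, FDR 0.000133, higher in 6 of 6 mice). Axl, a receptor tyrosine kinase, was at 613 FPM (322 to 979) and 1297 FPM (686 to 2198) (log2-fold change 1.07, SE 0.16, FDR 4.64e-06, higher in 6 of 6 mice), and Dock5, an activator of Rac, rose (log2-fold change 1.39, FDR 4.98e-06, higher in 5 of 6). The number lower was 1 without mouse 2, 3, 4 or 5, or treated library 1, 3 or 5. Outside this list, Thbs1, thrombospondin 1, which is counted with the provisional matrix genes below, went from 1939 FPM (1317 to 3023) to 7029.8 FPM (2140.3 to 11740.2) (log2-fold change 1.74, SE 0.21, FDR 4.26e-07, higher in 6 of 6 mice). Lgals1, galectin 1, also outside the YAP and TEAD list, had a log2-fold change of 1.22 with the treated library of replicate 3 and 0.74 without that library (0.70 without mouse 3).

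Small leucine-rich proteoglycans, which coat collagen fibrils, had the lowest median of the 34 pathway lists, 7 of 11 called lower and 1 higher with a median of −2.57 (−2.49 without the treated library of replicate 3). Ogn, osteoglycin (chr13:49608046-49624501), was at 134 FPM (44.2 to 411) and 6.95 FPM (4.98 to 10.9). Every treated culture lay under every control (log2-fold change −4.20, SE 0.46, FDR 8.05e-08, lower in 6 of 6 mice). Aspn, asporin, was at 15.8 FPM (9.32 to 40.6) and 1.44 FPM (0.905 to 5.20), also without overlap (log2-fold change −3.35, SE 0.44, FDR 8.92e-07, lower in 6 of 6 mice). Fmod, fibromodulin, was at 77.3 FPM (23.1 to 312) and 9.52 FPM (1.25 to 111) (log2-fold change −2.52, SE 0.43, FDR 2.39e-05, lower in 5 of 6 mice), and Ecm2 fell as well (log2-fold change −2.63, FDR 3.54e-06, lower in 6 of 6). The medians by mouse were −3.12, −3.75, −2.74, −1.59, −2.09 and −0.09. The list median was thus nearest 0 in mouse 6, where Ogn, Aspn and Ecm2 fell all the same.

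Collagen genes were called lower in 8 of 23 and higher in 0, with a median of −1.01. With no mouse term in the fit, 1 was called lower. Without the treated library of replicate 3, 6 were lower and 3 higher with a median of −0.75 (−0.60 without mouse 2), and in mouse 3 the median difference was −1.84. Col3a1, fibrillar collagen III, was at 3196 FPM (144 to 9391) and 715 FPM (48.0 to 2273) (log2-fold change −1.87, SE 0.29, FDR 9.29e-06, lower in 6 of 6 mice). Col6a1, of the microfibrillar collagen VI, was at 2115 FPM (712 to 3929) and 357 FPM (218 to 929) (log2-fold change −2.16, SE 0.36, FDR 1.86e-05, lower in 6 of 6 mice), and Col6a2 fell with it (log2-fold change −1.94, FDR 2.43e-05, lower in 6 of 6). Col1a2 had the largest loss in mean FPM of all called genes, though not in the median and with 1 control far above the others, from 6139 FPM (1719.9 to 31278) to 2916 FPM (1206 to 13132) (log2-fold change −1.05, SE 0.24, FDR 0.000634, lower in 5 of 6 mice). Col14a1 (log2-fold change −2.30, FDR 1.27e-05, lower in 6 of 6) is also among the fibroblast markers, whose sum fell with these genes, as did the small leucine-rich proteoglycans Dcn and Lum. The part of other cells in this was not tested.

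Elastic fibre genes were called higher in 3 of 22 and lower in 10, with a median of −0.45, and 5 higher without the treated library of replicate 3 and 6 without mouse 3. Fbln7, a fibulin, was at 358 FPM (39.7 to 1249) and 35.9 FPM (13.1 to 52.4) (log2-fold change −3.47, SE 0.37, FDR 7.42e-08, lower in 6 of 6 mice). Mfap4, a microfibril-associated protein, was at 0.973 FPM (0.0469 to 62.5) and 0.0768 FPM (0 to 4.65), lower in every mouse but with controls far apart (log2-fold change −3.93, SE 0.47, FDR 3.12e-07, lower in 6 of 6 mice), and not called without mouse 1 (−4.33). Ltbp3, a latent TGF-beta binding protein, fell moderately (log2-fold change −0.97, FDR 3.76e-05, lower in 6 of 6), as did Fbln1 (−1.57, FDR 5.17e-05, lower in 6 of 6). Provisional matrix genes had no common direction, 9 of 20 higher and 5 lower with a median of 0.14 (0.35 without treated library 3). Cd44, the hyaluronan receptor, was at 79.7 FPM (26.4 to 115) and 368 FPM (238 to 475), without overlap (log2-fold change 2.37, SE 0.28, FDR 2.34e-07, higher in 6 of 6 mice). Tnxb, tenascin X, was at 238 FPM (15.8 to 439.7) and 24.5 FPM (9.30 to 34.3) (log2-fold change −2.98, SE 0.40, FDR 1.2e-06, lower in 6 of 6 mice), and Thbs3 fell too (log2-fold change −1.11, FDR 4.75e-06, lower in 6 of 6). The members named here thus moved in both directions.

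Complement genes were called lower in 9 of 17 and higher in 1 (0 without mouse 2 or 3 or treated library 2), with a median of −1.72. Only 2 were called lower without the mouse term in the fit. C1s1, a protease of the C1 complex, was at 715 FPM (75 to 1097) and 145 FPM (48.1 to 317) (log2-fold change −2.06, SE 0.27, FDR 7.3e-07, lower in 6 of 6 mice). C1ra, its activator, was at 605 FPM (80.4 to 1439) and 148.2 FPM (55.8 to 262) (log2-fold change −2.02, SE 0.27, FDR 1.39e-06, lower in 6 of 6 mice), and C4b (−2.16, FDR 1.01e-05, lower in 6 of 6) and the C1 inhibitor Serping1 (−2.17, FDR 8.72e-06, lower in 6 of 6) fell as well. Proteases and their inhibitor moved together, each lower in all 6 mice. Cytokines and chemokines were higher in 5 of 22 and lower in 1 (2 without mouse or treated library 3), with a median of 0.41 (0.27 without mouse 1). Clcf1, a ligand of the gp130 receptors, was at 14.2 FPM (9.08 to 18.7) and 28.0 FPM (21.7 to 41.1), without overlap (log2-fold change 1.10, SE 0.15, FDR 1.32e-06, higher in 6 of 6 mice). Csf1, the macrophage colony-stimulating factor, rose (log2-fold change 1.44, FDR 0.000451, higher in 5 of 6), as did Lif (1.88, FDR 7.59e-05, higher in 5 of 6). Csf1r, the receptor for Csf1, was low but called higher (0.87, FDR 0.0025, higher in 5 of 6).

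Prostanoid genes, the pathway that makes thromboxane and prostacyclin, were called higher in 4 of 15 and lower in 1, with a median of −0.26 (0.06 without mouse 6, −0.51 without mouse 5, −0.45 without treated library 5, −0.12 without treated library 2). Ptgs2, the inducible cyclooxygenase, was at 7.01 FPM (0.299 to 11.4) and 44.6 FPM (21.7 to 167.5), without overlap (log2-fold change 3.93, SE 0.72, FDR 6.49e-05, higher in 6 of 6 mice). Ptgs1, the constitutive cyclooxygenase, rose with overlap (log2-fold change 0.72, FDR 0.000162, higher in 6 of 6), and Ptges3, a prostaglandin E synthase, did too (1.00, FDR 3.1e-05, higher in 6 of 6). Ptgir, the prostacyclin receptor, fell from 10.3 FPM (4.46 to 26.0) to 2.66 FPM (1.43 to 7.32) (log2-fold change −1.80, SE 0.43, FDR 0.000983, lower in 6 of 6 mice). The cyclooxygenases named here rose in all 6 mice, and this receptor fell in all 6.

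Genes of cyclic nucleotide signalling, the relaxing arm in smooth muscle, were called higher in 3 of 21 and lower in 5, with a median of −0.52 (−0.29 without mouse 5). Only 1 was called higher without mouse 2 or its treated library. Npr2, the receptor for C-type natriuretic peptide, was at 95.6 FPM (57.3 to 205) and 37.7 FPM (27.8 to 91.3) (log2-fold change −1.17, SE 0.17, FDR 3.23e-06, lower in 6 of 6 mice). Pde5a, the cGMP phosphodiesterase, fell (log2-fold change −1.39, FDR 0.000428, lower in 5 of 6). Gucy1a1, a subunit of the nitric oxide receptor, was called lower (−2.37, FDR 0.000106, lower in 6 of 6), but not without mouse 5 (−2.51), mouse 6 (−2.18) or the treated library of replicate 5 (−2.60). The regulators of G protein signalling were split, 2 of 13 higher and 3 lower with a median of 0.02. Without treated library 3, 5 were lower, and the median ran from −0.09 without mouse 3 to 0.09 without treated library 1. Rgs16 rose (log2-fold change 2.01, FDR 0.000221, higher in 5 of 6) and Rgs19 slightly (0.33, FDR 0.00351, higher in 6 of 6). Rgs5, a marker of arterial mural cells, fell (−2.16, FDR 0.000325, lower in 6 of 6, −1.38 without mouse 5), and Rgs2 fell (−1.52, FDR 0.00154, lower in 5 of 6) but was not called without mouse 6 (−1.27).

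In the IGF, TGF-beta and WNT lists more genes were called lower than higher, and this difference was not tested. In the IGF system 6 of 15 were lower and 0 higher (1 without mouse 5), with a median of −0.88 (−0.32 without mouse 3, −0.57 without treated library 3). Without the mouse term in the fit, 0 of these genes were called lower. Igfbp4, which binds IGF in the medium, was at 327 FPM (71.4 to 497) and 51.8 FPM (10.3 to 284) (log2-fold change −2.17, SE 0.47, FDR 0.000428, lower in 6 of 6 mice), and Igfbp3 (−1.66, FDR 0.000641, lower in 5 of 6), Igfbp5 (−2.22, FDR 0.000942, lower in 5 of 6) and the adaptor Irs1 (−1.26, FDR 0.00435, lower in 6 of 6) also fell. In the TGF-beta, BMP and ID list 6 of 29 were higher (3 without mouse 2) and 10 lower, with a median of −0.09 (−0.23 without mouse 1 or treated library 1, −0.01 without mouse 3, 0.03 without treated library 3). A fit with no mouse term called 0 higher and 3 lower. Id4, an inhibitor of bHLH factors, was at 70.0 FPM (11.1 to 258) and 13.7 FPM (7.26 to 61.3) (log2-fold change −2.21, SE 0.32, FDR 3.37e-06, lower in 6 of 6 mice), while Inhba, the activin A subunit, rose (log2-fold change 1.80, SE 0.23, FDR 7.67e-07, higher in 6 of 6 mice). Id2 (−1.46, FDR 1.64e-05, lower in 6 of 6) and the BMP antagonist Chrd (−1.13, FDR 2.03e-05, lower in 6 of 6) fell in all 6 mice. In the WNT and Notch list 6 of 29 were lower (2 with no mouse term) and 0 higher, with a median of −0.69 (−0.44 without mouse 5). Notch3, the Notch receptor of arterial smooth muscle, was at 152.2 FPM (52.9 to 442) and 46.7 FPM (2.94 to 279) (log2-fold change −1.95, SE 0.33, FDR 2.35e-05, lower in 6 of 6 mice). Its ligand Jag1 (−1.35, FDR 5.61e-05, lower in 6 of 6) and the secreted WNT antagonists Dkk3 (−1.96, FDR 1.23e-06, lower in 6 of 6) and Sfrp1 (−1.82, FDR 4.98e-05, lower in 6 of 6) fell beside it.

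In the mixed list of Kruppel-like, FOXO and quiescence genes, 12 of 22 were called lower and 1 higher, with a median of −0.53. Klf15, a Kruppel-like factor that restrains growth of smooth muscle, was at 30.5 FPM (20.1 to 35.8) and 5.01 FPM (3.80 to 9.60), without overlap (log2-fold change −2.28, SE 0.23, FDR 4.12e-08, lower in 6 of 6 mice). Pik3ip1, an inhibitor of PI3 kinase, was at 68.5 FPM (50.3 to 107) and 18.9 FPM (7.15 to 34.3), also without overlap (log2-fold change −2.08, SE 0.34, FDR 1.7e-05, lower in 6 of 6 mice), and Sesn1, which restrains mTORC1, separated the groups too (log2-fold change −1.69, FDR 1.64e-06, lower in 6 of 6). Fkbp5, a glucocorticoid-responsive chaperone, was the member that rose (1.00, FDR 1.67e-06, higher in 6 of 6). Clock genes had 2 of 18 higher and 2 lower, with a median of −0.24 (−0.07 without mouse 1, −0.37 without mouse 4, −0.13 without treated library 1). When 1 mouse or treated library was left out, each of these counts ran from 1 to 3. Per3 fell (−1.15, FDR 0.00188, lower in 6 of 6) and Bhlhe40 rose (0.65, FDR 0.000988, higher in 5 of 6). Cry2 (−0.34, FDR 0.0329, lower in 5 of 6) lost its call without the treated library of replicate 3 (−0.29) and in 8 other fits that left out 1 mouse or 1 library (from −0.21 to −0.37). Nfil3 (0.62, FDR 0.0403, higher in 6 of 6) lost it in 9 such fits (0.50 to 0.69).

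Retinoid genes were called lower in 9 of 15 and higher in 0, with a median of −0.83 (−1.04 without the treated library of replicate 3). Adh1, an alcohol dehydrogenase that oxidises retinol, was at 23.1 FPM (5.98 to 132) and 1.56 FPM (0.270 to 3.35), without overlap (log2-fold change −4.65, SE 0.69, FDR 4.24e-06, lower in 6 of 6 mice). Aldh1a1, which makes retinoic acid, was at 352 FPM (131 to 486) and 97.4 FPM (39.7 to 301) (log2-fold change −1.55, SE 0.29, FDR 6.46e-05, lower in 6 of 6 mice). Rxra, the shared partner of nuclear receptors, fell less but without overlap (log2-fold change −0.77, FDR 7.68e-06, lower in 6 of 6), and Rarres2, which encodes chemerin, fell (−1.66, FDR 9.12e-06, lower in 6 of 6). The 4 genes named here fell in all 6 mice. Cholesterol efflux and ABC transporter genes were lower in 11 of 15 and higher in 1, with a median of −0.96. Abca8a, a lipid transporter, was at 11.6 FPM (5.04 to 31.4) and 0.340 FPM (0 to 1.81), without overlap (log2-fold change −4.80, SE 0.68, FDR 2.3e-06, lower in 6 of 6 mice). Apoe, the lipoprotein ligand, was at 204 FPM (18.1 to 1267) and 80 FPM (3.57 to 399) (log2-fold change −1.46, SE 0.25, FDR 2.88e-05, lower in 6 of 6 mice), and Apod (−2.46, FDR 1.43e-05, lower in 6 of 6) and the oxysterol receptor LXR alpha, Nr1h3 (−1.62, FDR 4.76e-06, lower in 6 of 6), fell as well. These genes of lipid export fell in all 6 mice.

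Some of the largest decreases belong to genes of no common pathway. Scara5, a ferritin receptor that also marks adventitial fibroblasts, was at 28.4 FPM (1.90 to 133) and 1.03 FPM (0.113 to 2.26) (log2-fold change −5.04, SE 0.57, FDR 1.83e-07, lower in 6 of 6 mice). Lrrc17 was at 8.83 FPM (0.0475 to 24.0) and 0.286 FPM (0 to 0.850) (log2-fold change −5.0, SE 0.63, FDR 6.2e-07, lower in 6 of 6 mice). Slc7a8, the amino acid transporter LAT2, fell from 2.91 FPM (0.333 to 16.5) to 0.0880 FPM (0.05 to 0.649) (log2-fold change −4.69, SE 0.59, FDR 6.16e-07, lower in 6 of 6 mice) and was not called without mouse 1 (−4.56) or mouse 2 (−4.59). The bile acid and steroid sulfate transporter Slc10a6 (−4.13, FDR 8.05e-07, lower in 6 of 6) and Palm3 (−4.07, FDR 1.7e-06, lower in 6 of 6) separated the groups, the latter not called without mouse 2 (−3.62). Aox3, an aldehyde oxidase, had a log2-fold change of −4.23 with and −3.44 without the treated library of replicate 3, and was not called without mouse 3 (−3.50). All 6 genes were under 3 FPM in every treated culture.

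Antioxidant genes had 9 of 22 higher and 8 lower, with a median of 0.05, and 8 and 11 with a median of −0.25 without the treated library of replicate 3. The median was −0.30 without mouse 3, 0.18 without mouse 1 and 0.15 without treated library 6. Gstt1, a glutathione transferase, was at 91.8 FPM (28.2 to 117) and 7.72 FPM (3.79 to 21.0), without overlap (log2-fold change −3.25, SE 0.43, FDR 1.19e-06, lower in 6 of 6 mice). Gstm2, another of these enzymes, was at 294 FPM (182.7 to 403) and 89.4 FPM (67.4 to 164.4) (log2-fold change −1.51, SE 0.19, FDR 6.36e-07, lower in 6 of 6 mice), and the microsomal Mgst1 fell too (log2-fold change −1.74, FDR 2e-06, lower in 6 of 6). Txnrd1, thioredoxin reductase, rose instead (1.17, FDR 4.33e-06, higher in 6 of 6). Members of the same list thus moved apart. Fth1, the ferritin heavy chain, is not in this list and was among the largest losses in FPM, from 5550.4 FPM (1733 to 8871) to 1414 FPM (873 to 6380.4) (log2-fold change −1.19, SE 0.30, FDR 0.00171, lower in 5 of 6 mice).

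Chaperones of the endoplasmic reticulum had 7 of 20 higher (4 without mouse 1) and 2 lower (0 without mouse 2, 1 without treated library 3), with a median of 0.19 (0.10 without mouse 1, 0.31 without mouse 6, 0.29 without treated library 3). Dnajb11 (0.45, FDR 0.000293, higher in 5 of 6), Pdia6 (0.49, FDR 0.00412, higher in 5 of 6) and Fkbp10 (0.46, FDR 0.00527, higher in 6 of 6) rose modestly, and Dnajb9 fell (−0.44, FDR 0.00878, lower in 6 of 6) but was not called without mouse 2 (−0.31). Senescence and p53 target genes were split, 7 of 18 higher and 4 lower (2 without mouse 2, 4 or 5, or treated library 2, and 6 without mouse or treated library 3) with a median of −0.05 (−0.08 without mouse 3, 0.06 without mouse 6, 0.02 without treated library 6). Lmnb1, the lamin that senescent cells lose, rose in all mice (log2-fold change 1.46, SE 0.34, FDR 0.000763, higher in 6 of 6 mice). Mdm2 (0.62, FDR 0.000785, higher in 6 of 6) and Trp53 (0.53, FDR 0.000879, higher in 6 of 6) rose and Trp53inp1 fell (−1.48, FDR 5.15e-05, lower in 6 of 6). Neither list had a median far from that of all genes tested.

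The study normalized to Gapdh and Eef2 in qPCR and to GAPDH and HSP90 proteins in blots. Gapdh, Eef2 and the genes Hsp90aa1 and Hsp90ab1, chosen here to stand for HSP90, were all called. Gapdh was at 133 FPM (85.9 to 166.3) and 337 FPM (216 to 675), without overlap (log2-fold change 1.51, SE 0.23, FDR 5.22e-06, higher in 6 of 6 mice). Reads shared with its pseudogenes were not measured. Hsp90aa1 (1.17, FDR 0.000132, higher in 6 of 6) and Hsp90ab1 (0.44, FDR 0.00126, higher in 6 of 6) rose as well. Eef2 was called lower (−0.52, FDR 0.0312, lower in 5 of 6), but lost the call in 7 fits that left out 1 mouse or 1 library (−0.26 to −0.55). None of the 4 was thus free of a call in the fit of all libraries.

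How the 3 substances together compare with the smaller mixtures is the question of the other contrasts, which share the treated libraries. Against EGF+U46619, which lacks AngII, 0 of 14528 genes were called (0%), with 0 in edgeR alone, 0 in DESeq2 alone and 569 at an unadjusted p under 0.05 in both. The smallest FDR was 0.801. Fitted differences were within 0.5 (log2) for 13042 genes, and the median SE of a difference was 0.21. A call after adjustment over all genes needs several SE, so true differences well above that size could also be missed. Abca8a, at −1.35, was not called. Against U46619 alone 0 were called (0%), with 0 in edgeR, 18 in DESeq2 and 640 at an unadjusted p under 0.05, and DESeq2 found 8 without the treated library of replicate 3. A difference between the mixture and U46619 was thus not shown for any gene by the joint rule.

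Many genes were called between the full mixture and cultures without U46619. Against EGF the mixture differs by AngII as well as by U46619. Against EGF+AngII 2901 genes were called (20.0%), 1729 higher and 1172 lower, and without the treated library of replicate 3 the count was 2638 (1411 and 1227). Against EGF 2941 were called (20.2%), 1676 higher and 1265 lower, and 2947 without that library. These counts were 1263 and 1551 without mouse 2, and 297 and 410 without the mouse term. They were 1069 and 468 with only the libraries compared in the fit (2208 and 1492 when treated library 3 was left out as well, chosen after seeing the data), and 0 and 0 with limma on the differences within mice. Abca8a had the largest decrease that both shared, at a median of 23.2 FPM with EGF+AngII, 22.3 with EGF and 0.340 with all 3 (log2 difference −5.63, FDR 5.69e-06 against EGF+AngII, and −5.61, FDR 6.95e-06 against EGF). Crct1 (4.06, FDR 6.69e-06) and H2-M1 (4.00, FDR 4.41e-05) had the largest increases against EGF+AngII, and Serpinb2 (4.68, FDR 0.000113) and Nppb (4.28, FDR 0.000652) against EGF. Gdf10, a BMP-like factor, was lower against EGF+AngII (−4.23, FDR 0.00105), EGF (−4.50, FDR 0.000487) and control (−5.16, FDR 2.12e-05, lower in 4 of 6), and the call against control was lost without mouse 1 (−4.41).

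The single substances against the same controls gave 4 called genes for EGF (0.0275%), 0 for AngII (0%) and 3893 for U46619 (26.8%), and the pairs gave 455 for EGF+AngII (3.13%) and 4665 for EGF+U46619 (32.1%). For EGF, DESeq2 alone called 264 and 2140 genes had an unadjusted p under 0.05, and for AngII both tools called 0 and 7 genes had one. For EGF+AngII, edgeR alone called 456 and DESeq2 alone 1325, and 3121 genes had an unadjusted p under 0.05. All of these share the 6 control libraries with the 4849 calls of the full mixture, so their counts are side by side and not independent. A test of the departure from the sum of the 3 single responses called 0 genes (0%) in edgeR, DESeq2 and both, with 1.04% of 14528 genes at an unadjusted p under 0.05 and a smallest FDR of 0.987. The median SE of that departure was 0.42 (log2), and departures of that size or well above it could be missed. Abca8a departed by −1.94 (SE 1.17) and was not called.

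Single genes show how the mixtures, which share the controls, line up. Acta2 had log2-fold changes of −0.37 with EGF, 0.12 with AngII, 2.05 with U46619, −0.29 with EGF+AngII, 1.62 with EGF+U46619 and 1.88 with all 3, which puts every mixture with U46619 above 1 and the others near or under 0. In the same order, Mcm6 had 0.95, 0.09, 1.29, 1.06, 1.47 and 1.67. Il1rl1 had 2.06, −0.41, 2.96, 2.05, 4.28 and 4.18. Ptgir had 1.12, 0.08, −1.56, 0.92, −1.67 and −1.80, and Spry1 0.42, −0.02, −1.11, 0.29, −1.49 and −1.47. For these 2 genes the fitted sign differed between EGF and U46619, and the full mixture had the sign of U46619. None of these differences between mixtures was tested gene by gene beyond the contrasts above.

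**Figure D4:**
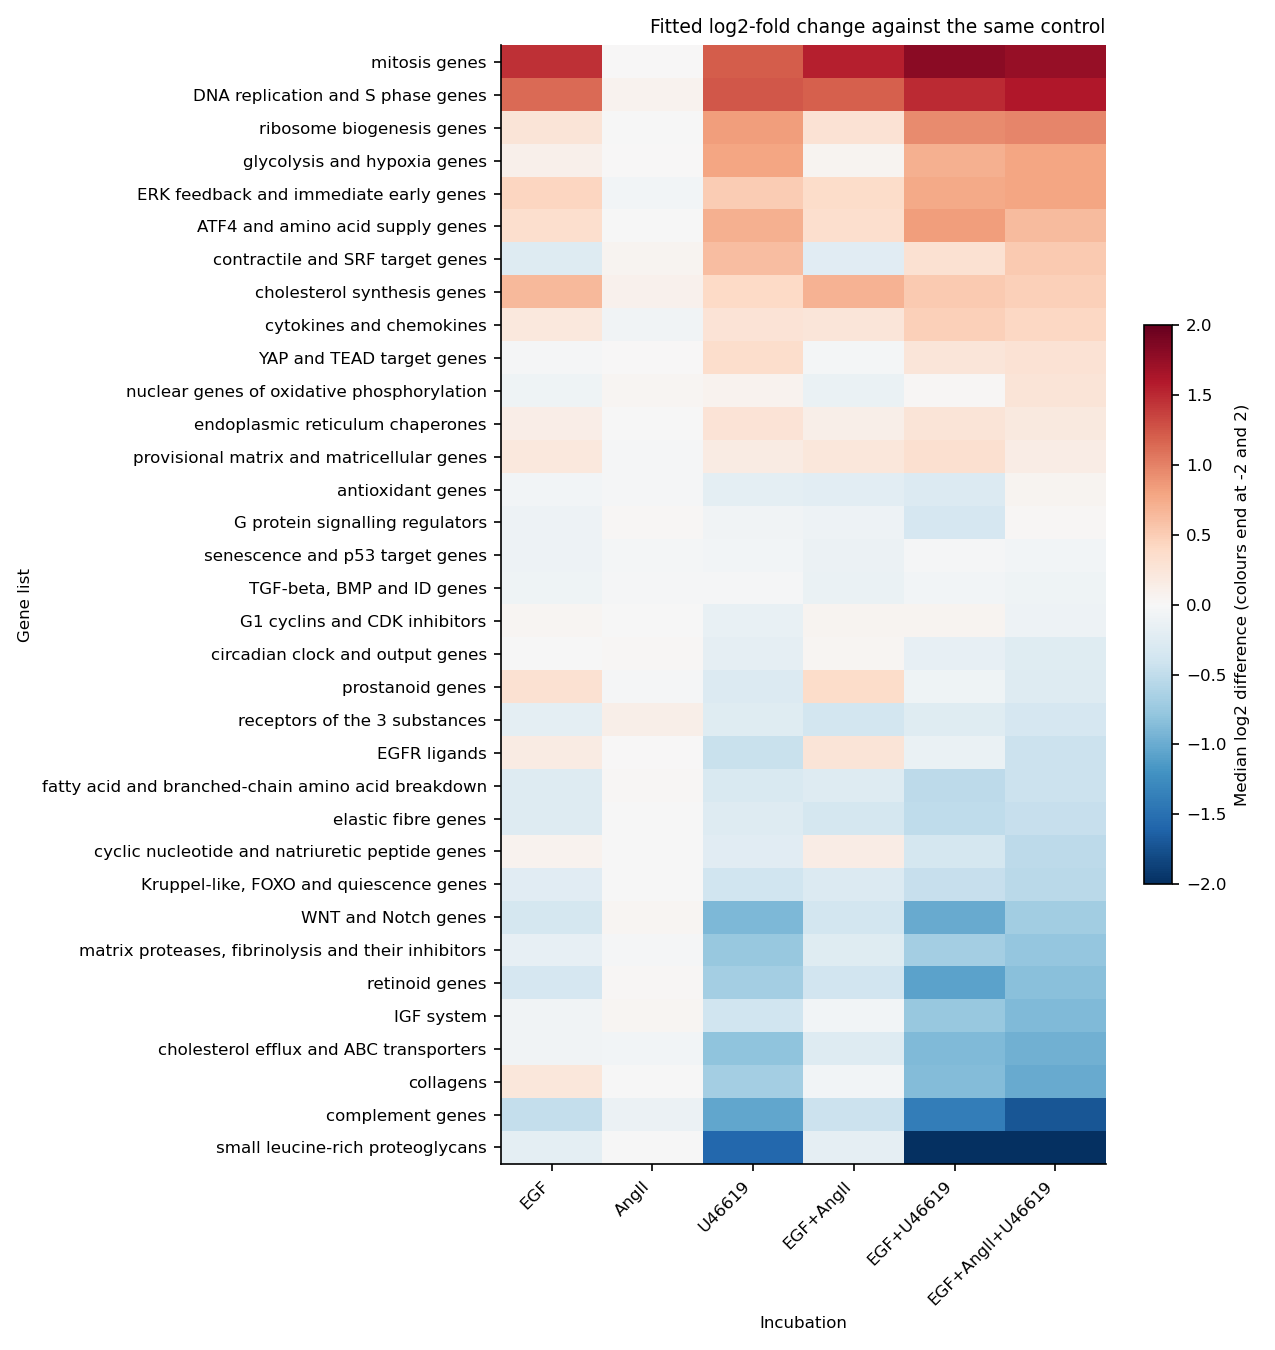
Median log2-fold change against control of the tested genes of 34 pathway lists for each incubation after 24 h, with colours from −2 (blue) to 2 (red), all incubations sharing the same 6 controls. The DNA replication list is at 1.13 with EGF, 1.24 with U46619 and 1.60 with all 3 substances, while glycolysis is at 0.09, 0.79 and 0.79.

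Promoters of 3 lists, chosen after seeing the data, were searched for the motif of a factor known for that list. Those of the other lists, among them ribosome biogenesis, mitosis and retinoid genes, were not searched. Sequences come from RefSeq, build GRCm38.p6, and span 250 bases before to 50 after the start of 27025 genes. For the DEG as a whole the search is void, because only 72.9% of those higher and 77.6% of those lower have a promoter in the table (68.7% of the genes tested), which holds for the AP-1, TEAD, E2F, ATF4, E-box and CArG motifs alike. Among 38 promoters of DNA replication genes, 7 (18.4%) hold GGCGGGAA, the letters of an E2F site, on either strand, against 2.24% of all promoters. Among 23 promoters of amino acid supply genes, 5 (21.7%) hold TGATGNAA, an ATF4 site, against 4.06%. Among 21 contractile promoters, 4 (19%) hold a CArG box, the site of SRF, against 1.57%. In the 200 bases before the start these shares are 10.5%, 17.4% and 14.3%, against 1.69%, 2.93% and 1.14% of all promoters. Lists of such genes were partly made from known targets, and a match of letters says nothing of binding.

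The promoters below belong to genes that rose, with the matched letters in capitals, and show where the motifs lie. For Serpinb2 and Uhrf1, with 2 promoters each in the table, the first is shown. Those of Serpinb2 (chr1:107511173-107511472, plus strand) and Ankrd1 (chr19:36119795-36120094, minus strand), among the largest increases, are shown for TGANTCA (a loose form of the AP-1 site, in 7.93% of all promoters) and GGAATG (TEAD, in 14.6%). The N takes any base. In Serpinb2 the letters are TGAATCA, which is not the usual AP-1 site, TGACTCA or TGAGTCA. Uhrf1 (chr17:56303087-56303386, plus strand, log2-fold change 2.03) and Mcm3 (chr1:20820263-20820562, minus strand, 1.65) are the replication genes with the E2F letters that rose most, chosen after their values were seen. For amino acid supply they are Slc7a11, the cystine transporter (chr3:50443564-50443863, minus strand, 1.75, chosen in the same way), and Asns (chr6:7693160-7693459, minus strand). Srf (chr17:46556113-46556412, minus strand) was the contractile gene with a CArG box that was called, at 0.58, and not without mouse 2 (0.33), mouse 5 (0.57) or the treated library of replicate 2 (0.40).
Serpinb2: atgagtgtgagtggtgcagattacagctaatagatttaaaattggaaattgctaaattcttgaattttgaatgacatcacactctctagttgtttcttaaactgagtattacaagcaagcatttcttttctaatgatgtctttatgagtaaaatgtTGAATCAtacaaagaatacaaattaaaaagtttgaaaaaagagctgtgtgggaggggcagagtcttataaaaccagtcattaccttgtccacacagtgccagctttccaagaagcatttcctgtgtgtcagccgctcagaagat
Ankrd1: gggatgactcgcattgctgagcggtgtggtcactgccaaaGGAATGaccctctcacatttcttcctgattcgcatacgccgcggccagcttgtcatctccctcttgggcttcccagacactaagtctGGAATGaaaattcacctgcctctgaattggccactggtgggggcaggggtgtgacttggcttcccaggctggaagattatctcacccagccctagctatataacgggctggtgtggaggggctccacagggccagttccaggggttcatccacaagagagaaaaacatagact
Uhrf1: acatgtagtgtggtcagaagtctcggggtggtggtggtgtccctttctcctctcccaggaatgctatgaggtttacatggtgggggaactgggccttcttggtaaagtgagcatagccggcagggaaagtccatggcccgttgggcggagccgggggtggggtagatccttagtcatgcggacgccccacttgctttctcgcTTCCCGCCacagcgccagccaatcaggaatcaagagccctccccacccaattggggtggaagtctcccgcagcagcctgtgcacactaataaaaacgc
Mcm3: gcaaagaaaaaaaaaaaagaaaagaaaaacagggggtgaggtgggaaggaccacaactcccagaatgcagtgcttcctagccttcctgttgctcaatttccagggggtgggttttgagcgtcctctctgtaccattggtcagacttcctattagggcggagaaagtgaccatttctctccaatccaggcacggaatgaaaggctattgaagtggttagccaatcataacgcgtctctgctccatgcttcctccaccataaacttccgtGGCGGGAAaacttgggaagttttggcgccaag
Slc7a11: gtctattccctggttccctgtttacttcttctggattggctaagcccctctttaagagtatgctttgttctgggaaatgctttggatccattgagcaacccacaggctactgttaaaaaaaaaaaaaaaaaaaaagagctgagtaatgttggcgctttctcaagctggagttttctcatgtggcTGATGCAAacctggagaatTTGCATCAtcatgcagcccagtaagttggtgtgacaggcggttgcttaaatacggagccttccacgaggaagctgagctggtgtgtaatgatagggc
Asns: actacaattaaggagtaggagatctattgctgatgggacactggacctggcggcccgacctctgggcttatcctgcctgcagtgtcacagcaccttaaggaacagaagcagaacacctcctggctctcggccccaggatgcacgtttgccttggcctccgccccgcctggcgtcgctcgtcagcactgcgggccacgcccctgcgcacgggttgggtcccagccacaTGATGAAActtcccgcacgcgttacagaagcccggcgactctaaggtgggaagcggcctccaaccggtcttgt
Srf: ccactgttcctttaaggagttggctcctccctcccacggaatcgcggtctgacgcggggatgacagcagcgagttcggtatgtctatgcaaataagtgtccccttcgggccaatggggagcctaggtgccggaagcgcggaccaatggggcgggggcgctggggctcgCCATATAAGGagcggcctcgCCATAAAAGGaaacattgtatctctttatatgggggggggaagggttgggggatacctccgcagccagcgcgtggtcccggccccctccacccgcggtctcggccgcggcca

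Each library is 1 culture of 1 mouse, and the paired cultures stand for 6 mice that differ in baseline and in the size of the response. Genes of chromosomes 9, X and Y, of the mitochondrial genome and of the end of chromosome 8 are not covered by any statement above.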

How the data were processed

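The counts are whole numbers per gene that the authors made before depositing them. Their processing notes name alignment of paired-end reads to mm10 with HISAT2 2.1.0 and counting per gene, with reads that align to several places included. The tables hold 55401 genes, and 34819 have a count in any of the 82 libraries. Genes of chromosomes 9, X, Y and MT (7075) are listed at 0 in all libraries, as are the 657 genes (312 protein-coding) of chromosome 8 from position 98196676 to 129282844, while 668 of the 722 protein-coding genes before that stretch have a count. These zeros were left out of every statement. No column of per-sample values was left unused (0).

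Genes had to pass filterByExpr after 24 h (14653) and after 48 h (15796), which left 14528. All 42 libraries of the 24 h incubation were fitted with mouse and treatment as terms in edgeR (quasi-likelihood F test) and DESeq2 (Wald test). P values were adjusted after Benjamini and Hochberg, in edgeR over the 14653 genes that passed after 24 h. In DESeq2 they were adjusted over the genes with a count that its independent filtering kept. Fold changes, SE and the FDR printed are those of edgeR. Pairing by mouse number was checked by correlating the control and treated cultures over genes after removing group means, and 6 of 6 pairs were over 0.1 (0.395 to 0.733).

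Members and gene lists were chosen with earlier results of these data known. Genes are named when they encode a receptor of the substances, are Gapdh, Eef2, Hsp90aa1 or Hsp90ab1, are among the 10 largest increases or decreases of protein-coding genes called with the same sign in 6 mice, are among the 4 largest gains or losses in mean FPM, are the 4 called members of a list with the lowest p (or its 2 most abundant members where fewer than 2 were called), or are among the 2 largest changes each way in another comparison. The 42 lists (34 of pathways, 8 of markers) lost 79 genes to the chromosomes at 0 and 14 to the stretch of chromosome 8, and 1 gene was not matched. Uhrf1, Mcm3, Slc7a11, Srf, Myh11, Myocd, Lmod1, Krt18, Dcn, Fabp4, Tagln, Cnn1 and the markers at 0 fall outside that rule and were chosen after their values were seen. Software was R 4.3.3, edgeR 4.0.16, DESeq2 1.42.0, limma 3.58.1, Python 3.11.15, NumPy 2.4.6, pandas 2.3.3 and Matplotlib 3.10.9.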

Additional observations from a re-analysis of the deposited data

Results flagged for a closer look

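Each measure below has a culture far from the other 5 of its group, by a gap to the nearest culture, as a share of the group's range, above Dixon's 95% critical value for 6, and chance flags about 1 in 20 groups. For the libraries, 11 of 30 measures passed this limit. The treated library of replicate 3 did so for its TMM factor (gap 0.706 of the range, value 0.646 against 0.906 to 1.01), its highest correlation within the mouse (0.886, value 0.949 against 0.990 to 0.995), its ribosomal protein sum (0.851, 31984 FPM against 6403 to 10223) and its mesothelial sum (0.644, 1248 FPM against 2.22 to 446). The control of replicate 3 did so for its mesothelial sum (0.689, 891 FPM against 0.838 to 278) and fibroblast sum (0.751, 3653 FPM against 741 to 1466), and that of replicate 1 for the share of counts on its 50 most abundant genes (0.638, 23.7% against 14.4% to 17.8%). Mouse 6 lay apart in endothelial sum, in the control (0.665, 2525 FPM against 9.85 to 852) and the treated culture (0.72, 2460 FPM against 4.92 to 692), and in adipocyte sum, in the control (0.956, 2354 FPM against 9.50 to 113) and the treated culture (0.818, 346 FPM against 5.79 to 67.9).

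For the differences within mice, 14 genes passed the limit, 8.33% of those checked, where 8.4 would at 1 in 20, with the far value in mouse 3 for 5, in mice 1, 2 and 6 for 3 each and in mice 4 and 5 for 0. In mouse 3 these were Aox3 (0.649, difference −4.41 against −1.69 to −0.22), Aoc3 (0.787, −4.38 against −2.09 to −1.48), Rbl2 (0.645, −2.91 against −1.27 to −0.36), Pecam1 (0.678, −1.84 against −0.60 to −0.00547) and S100b (0.642, 1.32 against −3.05 to −1.49). In mouse 1 they were Tgfa (0.655, −2.09 against −0.87 to −0.22), Rarres2 (0.845, −3.01 against −1.38 to −1.08) and Hsp90aa1 (0.626, 2.72 against 0.49 to 1.33). In mouse 2 they were Acta2 (0.709, 3.51 against 1.17 to 1.85), Col6a1 (0.664, −3.49 against −2.30 to −1.71) and Ptgir (0.646, −3.16 against −1.76 to −0.99). In mouse 6 they were Asns (0.654, 0.12 against 1.04 to 1.53), Dkk3 (0.763, −0.04 against −2.76 to −2.12) and Plin1 (0.669, −3.18 against −1.06 to 0). What set these cultures apart was not tested.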

How the results depend on the processing

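The 4849 genes called against control became 1316 with limma, tested on 6 treated minus control differences, 2143 with no mouse block, 1389 when the fit held the 12 libraries alone, and, in alternatives chosen after seeing the data that leave out the treated library of replicate 3, 1917 with the groups compared alone and 2475 with no mouse block. The cause was not tested. Leaving out each mouse gave 3791 (mouse 2) to 5165 (mouse 3), and each treated library 4288 to 5332.

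Against EGF+AngII the 2901 calls became 0 with limma, 297 with no mouse block, 1069 with only the groups compared and 2208 with also the treated library of replicate 3 left out (chosen after seeing the data), and 1263 to 3196 when a mouse or a treated library was left out. Against EGF the 2941 calls became 0 with limma, 410 with no mouse block, 468 with only the groups compared and 1492 with also the treated library of replicate 3 left out (chosen after seeing the data), and 1551 to 3208 when a mouse or a treated library was left out. Against U46619 DESeq2 alone called 18 where both tools together called 0 (edgeR alone 0, 640 at an unadjusted p under 0.05). The cause was not tested.

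The called genes that the text names or shows gave 4178 log2-fold changes over 26 alternatives. Of these, 3854 kept direction and call, 324 kept the direction without the call and 0 reversed, and 60 genes kept the call in all alternatives. With limma 60 lost it, among them the increases Serpinb2, Ankrd1, Crct1, H2-M1, Nppb, Vgf, Il1rl1, Ptgs2, H2-M9, Plaur, Krt19, Ccn2, Cdc25c, Rgs16, Cdk1, Foxm1, Mad2l1, Csf1, Lgals1, Tmem97, Actn1, Atp5g1, Csf1r, Ptgs1, Bhlhe40, E2f3, Nfil3, Mdm2, Atp5b, Trp53, Pdia6, Smtn, Fkbp10, Dnajb11, Hsp90ab1, Uqcrb and Rgs19. The decreases among them were Gdf10, Scara5, Abca8a, Adh1, Aox3, Ogn, Plin1, Rgs5, S100b, Adipoq, Rgs2, Irs1, Fth1, Synpo2, Tgfa, Eef2, Dnajb9 and Cry2. Uhrf1, Slc7a11 and Srf lost it too. With no mouse block 65 lost it, and 67 when the treated library of replicate 3 was also left out. Col3a1, Notch3, Apoe, C4b and Actg2 were among those that lost the call with no mouse block but kept it with limma. For the gene lists, 1610 of 1764 counts and medians stayed within 1.5 times or 1 SD of the value reported.

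The values that reversed belong to genes that were not called. Emcn went to −0.0651 with no mouse block, and leaving out a mouse or treated library gave −0.0513 to 0.23. Mbp, at 0 to 2 decimals, was 0.00618 with DESeq2, 0.0166 with only the groups compared, 0.25 when the treated library of replicate 3 was also left out, 0.00375 with DESeq2 size factors, 0.002249 with the filter on the design, and −0.12 to 0.24 in the leave-outs. Msln went to −1.14 and Pecam1 to 0.14 with no mouse block and that library left out. Rpl3 went to −0.00737 with limma, to −0.22 with only the groups compared and −0.36 with no mouse block, both without that library, and leave-outs gave −0.26 to 0.25. Rps18 went to −0.0614 and −0.27 in the same pair of fits, and to −0.10 to 0.59 in the leave-outs. Srebf2 ranged from −0.20 to 0.35 in the leave-outs. The cause was not tested. Depth was between 16483529 and 20818809 counts per library and limits genes of few FPM most.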
